A study of Homo sapiens with 9 samples.

Results

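ERβ1 cells that had received a ligand were compared with cells that carried the control vector, by RNA sequencing of MDA-MB-231, an established human breast cancer cell line of basal type with little classical oestrogen receptor. The comparison held 6 of the 9 libraries of the series. In 3 libraries the cells carried a lentiviral vector with GFP, luciferase and isoform 1 of oestrogen receptor beta, encoded by ESR2, and were given CLI for 24 h. In the other 3 the vector held GFP and luciferase alone and no CLI was given. All 6, and 3 further libraries of ERβ1 cells without CLI that stand beside them below, were given doxycycline at 100 ng/ml for 3 days to switch the vector on. CLI is named only by those letters in the labels, and no dose or structure is given in the sources used here. Because no control cells received CLI, effects of the receptor, of the ligand on the receptor and of the ligand without the receptor cannot be told apart in this comparison, nor can other differences between the transduced cell populations. The sample labels number the line upward from sample to sample, but for their culture MDA-MB-231 is the line named throughout, and that name is used here. The labels do not say whether the cells were 1 clone or many, nor whether replicates were separate cultures, so p-values measure only the spread between these samples.

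Oestrogen receptor beta is a nuclear receptor. It binds DNA as a dimer at oestrogen response elements or reaches other genes through bound factors such as AP-1 and Sp1, and a ligand changes the surface on which coactivators and corepressors dock. Unlike the classical receptor, encoded by ESR1, it is often studied as a restraint on growth in breast tissue, and basal-type lines such as MDA-MB-231 serve to examine it without ESR1.

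The libraries held 39902456 to 55387538 estimated counts, 17058 of 60240 gene IDs had enough counts to be tested, and mitochondrial transcripts took 6.93 to 7.92% of counts. Vimentin (VIM), a marker of the line, was at 3041 CPM (counts per 1000000) in control cells, and ESR1 had 0, 0 and 1.4 estimated counts in the control libraries. ESR1 was too low for the test, but in liganded cells it had 33.1, 306.4 and 2.7 counts, so that replicate 2 stood far above the others. That library and ERβ1 replicate 2 also stood apart over all genes, with a chi-square per gene of 21.5 to 23.5 against the other libraries of their groups, where other pairs of a group differed by 11.4 to 14.2. Without both of them, 3873 genes were called in the comparison, against 4512 with all libraries.

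ESR2 (ENSG00000140009, chromosome 14, 64084232 to 64338112, minus strand, GRCh38) was measured first, since it checks the labels. Control libraries held 0.132, 0.14 and 0.14 CPM and liganded libraries 82.6, 87.7 and 82.2 CPM, with 118, 115 and 118 CPM in ERβ1 cells without CLI. Every receptor library stood far above every control library, and the liganded libraries lay below the unliganded ones. The log2 fold change of liganded over control cells was 9.23 ± 0.07 (SE; edgeR quasi-likelihood adjusted p = 5.22e-12). Against ERβ1 cells without CLI it was -0.48 ± 0.04 (edgeR adjusted p = 0.000363). Each control library held only 6 ESR2 counts, so the SE of 0.07, which is derived from F, is smaller than the counting error. The counts do not separate vector transcript from that of the cells' own gene.

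Liganded ERβ1 cells differed from control cells in 4512 of 17058 genes, or 26.5% of those tested, at an adjusted p under 0.05 by edgeR's quasi-likelihood test. Of these, 2274 were higher (13.3% of genes tested) and 2238 were lower (13.1%). At least 2-fold changes were more often rises, with 632 genes higher (3.71%) and 182 lower (1.07%). Liganded and control libraries did not overlap for 7106 genes (41.7%). In the same fit ERβ1 cells without CLI differed from the same control libraries in 3645 genes (21.4%). Liganded differed from unliganded ERβ1 cells in 251 genes (1.47%), of which 178 were higher (1.04%) and 73 lower (0.428%). By the rule used, same-numbered libraries of those receptor groups counted as pairs, and with the replicate number as a block the 251 became 136, 104 higher and 32 lower.

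Most changes were small. The median size of a called change was 0.377 on the log2 scale, against 0.187 over all genes tested. Direction went with level. Of 2269 genes above 100 CPM, 291 were higher and 734 lower, with a median called size of 0.239. Of 3339 genes under 1 CPM, 325 were higher and 99 lower, and the median called size was 1.92. Low genes could pass the filter through the group where they are high, and at low counts only large changes can be called. The part of this in the counts by level was not tested. Protein-coding genes were called in 29.9% of 13697 cases and long intergenic noncoding RNAs in 17% of 922, where 111 were higher and 46 lower.

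**Figure D1:**
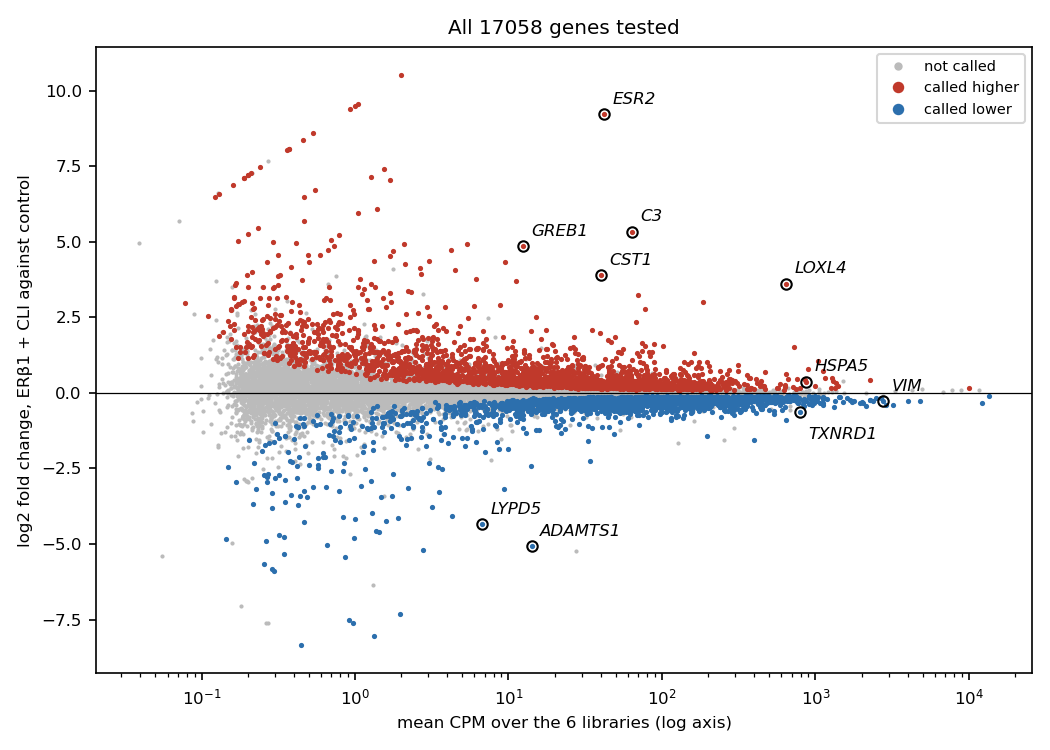
Each point is 1 of 17058 genes, placed by its mean CPM over the 6 libraries compared (log axis) and its log2 fold change in liganded ERβ1 cells against control cells; red and blue mark genes called higher (2274) and lower (2238). Called rises spread furthest at low levels, called falls predominate above 100 CPM (734 lower and 291 higher), and fitted values of genes without counts in a group depend on the prior count. At low levels genes can pass the filter through the group where they are high.

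The named rises after ESR2 are described first. C3 (ENSG00000125730, chromosome 19, 6677704 to 6730562, minus strand), the central component of complement, had 2.64, 3.45 and 3.14 CPM in control libraries and 131, 118 and 122 CPM in liganded ones. All liganded libraries stood far above all control libraries. The log2 fold change was 5.33 ± 0.14 (edgeR adjusted p = 4.04e-08). ERβ1 cells without CLI stood between, at 45.2, 45.9 and 35.2 CPM, and the ligand step alone was 1.55 ± 0.11 (edgeR adjusted p = 0.000216).

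GREB1 (ENSG00000196208, chromosome 2, 11482341 to 11642788, plus strand), an oestrogen-induced cofactor of oestrogen receptors, went from 0.638, 1.05 and 0.792 CPM in control libraries to 26.4, 22.2 and 23.2 CPM with receptor and ligand, with 4.92, 5.32 and 5.19 CPM in unliganded receptor cells. The 3 groups did not overlap. Its log2 fold change over control was 4.85 ± 0.16 and its ligand step 2.22 ± 0.13 (edgeR adjusted p = 2.13e-07 and 9.47e-05). OLFML3, a secreted olfactomedin-like glycoprotein, had the same order, with 0.286, 0.443 and 0.28 CPM in control, 2.31, 1.87 and 2.09 CPM in ERβ1 and 10.8, 9.89 and 10.5 CPM in liganded libraries (log2 fold change over control 4.94 ± 0.18, edgeR adjusted p = 3.37e-07).

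In the other named rises the unliganded mean lay between those of control and liganded cells. Their choice by the size of the rise fixed control below liganded, and it favours high liganded values. Among signalling and surface genes, RASGRP1, an exchange factor for Ras, had means of 0.131, 1.31 and 4.03 CPM in control, ERβ1 and liganded cells, and SLITRK4, a transmembrane protein of neurons, had 0.325, 1.5 and 5.02 CPM. PDZK1, a scaffold that holds transporters at the membrane, had 0.284, 1.99 and 4.98 CPM, and ALPP, the placental alkaline phosphatase, 0.207, 1.84 and 4.02 CPM. ALPP has close paralogues, so its share of their reads is uncertain. Among secreted and lipid-handling genes, the matricellular gene CCN5 had 0.306, 2.61 and 8.07 CPM, the fatty acid carrier gene FABP3 0.273, 1.83 and 5.76 CPM, and GASK1B, a Golgi-associated kinase gene, 0.495, 4.29 and 8.42 CPM. PTGS2, the inducible cyclooxygenase that starts prostaglandin synthesis, had 0.888, 8.26 and 18.1 CPM. Against control their log2 fold changes ran from 3.93 (SLITRK4) to 4.93 (RASGRP1). In each of these 8 genes all liganded libraries lay above all unliganded and all control libraries, the latter as the naming rule required. Liganded and unliganded libraries did not overlap, in either direction, for 3206 of 17058 genes tested. The ligand step was called for all of the 8 except ALPP (edgeR adjusted p = 0.0597), where 1.04% of all genes were called higher. Since the 8 were chosen for their rise in the same liganded libraries, that choice favours a called step. With the replicate block the step was not called for RASGRP1 and GASK1B (edgeR adjusted p = 0.0961 for both). Over their alternatives of edgeR, DESeq2 and limma, adjusted p ran from 1.08e-05 to 0.26 and from 0.000291 to 0.143. Leaving out single libraries also ended these steps, for RASGRP1 any receptor library or control replicate 2, and for GASK1B any library but unliganded replicate 2. The PDZK1 step was lost without replicate 2 or 3 of either receptor group, and that of SLITRK4 without unliganded replicate 2 or 3 or liganded replicate 3. Over the alternatives of edgeR, DESeq2 and limma, adjusted p ran from 2.08e-09 to 0.156 for PDZK1 and from 2.18e-09 to 0.144 for SLITRK4. Without both receptor libraries numbered 2, the steps of PDZK1, SLITRK4, RASGRP1, PTGS2 and FABP3 were not called (edgeR adjusted p = 0.156, 0.144, 0.26, 0.0606 and 0.0563), while those of CCN5 and GASK1B were (edgeR adjusted p = 0.0172 and 0.0391).

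**Figure D2:**
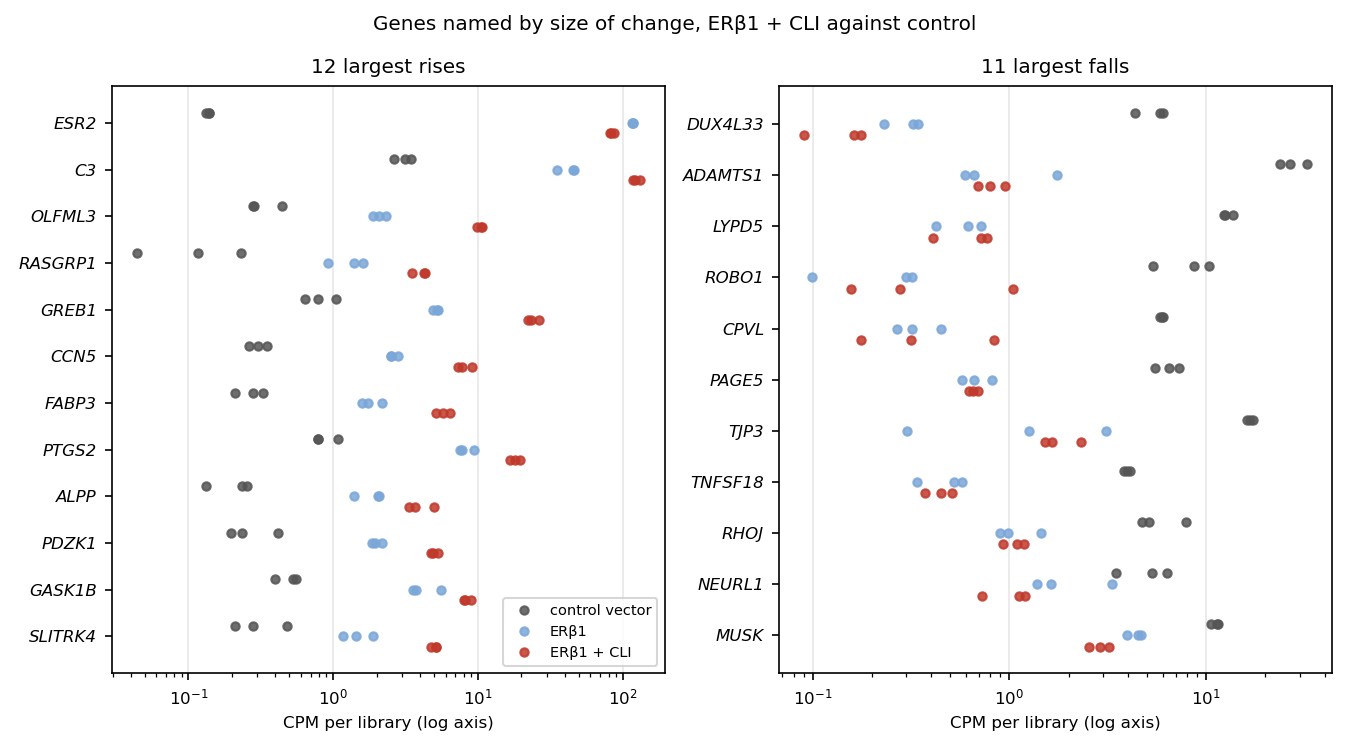
CPM in each library (log axis) of the 12 largest rises and 11 largest falls under the naming rule. The rule took called genes that averaged 2 CPM or more and left out clone, LOC, LINC, antisense and read-through names. Liganded ERβ1 cells are in red, control cells in grey and ERβ1 cells without CLI in blue. Each point is 1 library, 3 a group. Red and grey points do not overlap in any row, as the naming rule required, and among the rises C3 moves from 2.64 to 3.45 CPM in control libraries to between 118 and 131 CPM.

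The named falls came from genes of varied function. ADAMTS1 (ENSG00000154734, chromosome 21, 26835747 to 26845409, minus strand), a secreted protease of proteoglycans, had 23.7, 32.5 and 26.5 CPM in control and 0.695, 0.801 and 0.948 CPM in liganded libraries. It was nearly as low in ERβ1 cells without CLI, at 1.74, 0.66 and 0.596 CPM. Its log2 fold change was -5.08 ± 0.36 (edgeR adjusted p = 1.76e-05), and its ligand step was -0.28 ± 0.39. ROBO1, a receptor for the repellent SLIT proteins, had 10.3, 8.66 and 5.38 CPM in control and 0.278, 0.156 and 1.04 CPM in liganded libraries, a change of -4.06 ± 0.59 (edgeR adjusted p = 0.00119).

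Most of the remaining falls were already present in receptor cells without ligand. LYPD5, a surface protein of the Ly-6 family, had means of 12.8, 0.585 and 0.632 CPM in control, ERβ1 and liganded cells, and TJP3, a tight junction scaffold, had 16.7, 1.56 and 1.83 CPM. The carboxypeptidase gene CPVL had 5.94, 0.345 and 0.442 CPM, the cancer-testis gene PAGE5 6.41, 0.684 and 0.659 CPM, and TNFSF18, which encodes the ligand of the receptor GITR of T cells, 3.96, 0.478 and 0.444 CPM. The GTPase gene RHOJ had 5.91, 1.11 and 1.07 CPM and the ubiquitin ligase gene NEURL1 5.04, 2.11 and 1.01 CPM. DUX4L33, a pseudogene with many near-identical copies and thus an uncertain count, had 5.38, 0.299 and 0.143 CPM. These 8 falls ran from -2.32 (NEURL1) to -5.20 (DUX4L33) on the log2 scale. The ligand step was called in none of them (the lowest edgeR adjusted p was 0.187, with 0 of 8 called). Only 1.47% of all genes were called in that step, so none called among 8 says little of these genes. MUSK, the receptor tyrosine kinase of the nerve-muscle junction, had 11.2, 4.36 and 2.89 CPM and a called ligand step of -0.60 ± 0.11. That step was not called with the replicate block (edgeR adjusted p = 0.113), nor when any single library but liganded replicate 1 was left out. Over the alternatives of edgeR, DESeq2 and limma, its adjusted p ran from 0.00171 to 0.236.

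A further group was named for its step between unliganded and liganded receptor cells, among genes also called against control. INHBB (ENSG00000163083, chromosome 2, 120346143 to 120351808, plus strand), a subunit of activin B and inhibin B, had 2.22, 1.94 and 2.17 CPM in control, 1.72, 1.82 and 1.94 CPM in ERβ1 and 6.19, 7.52 and 6.53 CPM in liganded libraries. The liganded libraries were high, and the unliganded ones lay just below the control libraries. The log2 fold change was 1.68 ± 0.12 over control and 1.89 ± 0.12 over unliganded cells (edgeR adjusted p = 1.85e-05 and 0.000122), while unliganded cells differed from control by -0.21 ± 0.12 (edgeR adjusted p = 0.268).

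LOXL4 (ENSG00000138131, chromosome 10, 98247690 to 98268250, minus strand), a secreted amine oxidase that cross-links collagen and elastin, had 95.7, 96.7 and 98.3 CPM in control, 321, 321 and 321 CPM in ERβ1 and 1186, 1171 and 1198 CPM in liganded libraries. The spread within groups was small beside the steps between them. Its log2 fold change over control was 3.61 ± 0.03 and its ligand step 1.88 ± 0.02 (edgeR adjusted p = 5.22e-12 and 1.1e-09). RNF223, a RING finger gene, had 0 counts in every control library, 0.961, 1.02 and 1.07 CPM in ERβ1 and 3.45, 4.12 and 4.38 CPM in liganded libraries, at least 58.1-fold higher when each control library is set to 3 counts.

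Falls in the ligand step were smaller. SERPINB2, an inhibitor of plasminogen activators, had 8.43, 7.61 and 7.94 CPM in control and 6.07, 6.18 and 5.67 CPM in liganded libraries, with 9.45, 9.72 and 9.68 CPM in unliganded cells. It was highest without ligand and lowest with it, and the groups did not overlap. The step was -0.69 ± 0.07 and the change from control -0.42 ± 0.08 (edgeR adjusted p = 0.00287 and 0.00341). PTGES, the synthase that makes prostaglandin E from the cyclooxygenase product, fell from 29.4 to 22 CPM between control and liganded cells, and ALPK2, an alpha kinase gene, from 18.3 to 11.9 CPM. SEMA4D, a membrane semaphorin, had 41.9 CPM in control and 26.5 CPM in liganded cells (edgeR adjusted p = 0.0197). Over the alternatives of edgeR, DESeq2 and limma, its adjusted p ran from 0.000756 to 0.0692. Its call against control was lost without control replicate 3, without liganded replicate 2 or 3, and without both receptor libraries numbered 2. FGF1, the acidic fibroblast growth factor gene, was at the threshold, at -0.36 on the log2 scale (edgeR adjusted p = 0.05). Over 20 alternatives of edgeR, DESeq2 and limma, its adjusted p ran from 0.00628 to 0.153, and it lost its call in 13 of them. Among these steps those of ALPK2 and SEMA4D were not called with the replicate block (edgeR adjusted p = 0.0878 and 0.0932). Over the alternatives of edgeR, DESeq2 and limma, adjusted p of these 2 steps ran from 0.000416 to 0.146 and from 2.88e-05 to 0.18. Single libraries ended steps too, for ALPK2 any but unliganded replicate 3, for SEMA4D any but control replicate 3, and for FGF1 any but liganded replicate 2. Without both receptor libraries numbered 2, the steps of ALPK2, SEMA4D, PTGES and RNF223 were not called (edgeR adjusted p = 0.139, 0.18, 0.0754 and 0.0754).

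Promoters of these genes are shown because the oestrogen response element bears on genes that rise with a liganded oestrogen receptor. RefSeq windows (GRCh38.p14) from 250 bases before to 50 after a gene's start were matched by symbol for 12 of the 15 genes named as higher and for 14 of the 17 named as lower, with C3, GREB1, CCN5, DUX4L33 and ADAMTS1 not among them. The element GGTCANNNTGACC, which reads the same on both strands, occurs without mismatch in 0.057% of 35116 windows and with up to 2 mismatches in 10.2%. Its half-site, GGTCA or TGACC, which the full element contains, occurs in 37.4%. Counting every window of a gene, so that genes with several windows have more chances, 0 higher and 0 lower genes held the element with at most 1 mismatch. Within 2 mismatches it was found in 2 of 12 higher genes, ALPP and SLITRK4, and in 3 of 14 lower genes, CPVL, SERPINB2 and FGF1. The half-site was found in 7 of 12 higher and 7 of 14 lower genes. The match in ALPP was GGTCAAGGTGGCA, from -77 to -65 with the start at 0, and INHBB, of the ligand-step group, held a single half-site. These matches are letters in a window and say nothing of binding. Capitals mark half-sites and, in ALPP, the match within 2 mismatches.
ALPP, chr2:232378501-232378800, plus strand: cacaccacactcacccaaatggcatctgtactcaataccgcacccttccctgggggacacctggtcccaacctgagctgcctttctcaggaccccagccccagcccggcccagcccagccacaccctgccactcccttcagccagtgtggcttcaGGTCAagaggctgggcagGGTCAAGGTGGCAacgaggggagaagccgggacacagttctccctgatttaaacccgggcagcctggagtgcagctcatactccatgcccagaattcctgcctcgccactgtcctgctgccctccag
INHBB, chr2:120345886-120346185, plus strand: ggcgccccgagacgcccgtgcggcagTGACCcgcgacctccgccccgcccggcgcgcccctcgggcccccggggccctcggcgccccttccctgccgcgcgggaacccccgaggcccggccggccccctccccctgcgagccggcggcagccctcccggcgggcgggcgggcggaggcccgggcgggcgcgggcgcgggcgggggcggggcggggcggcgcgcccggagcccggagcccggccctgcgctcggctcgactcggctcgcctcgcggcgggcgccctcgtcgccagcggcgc

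Gene lists by function give the setting of these genes. They are read against the 26.5% of all genes called and a median log2 fold change of -0.00023 over all genes.

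**Figure D3:**
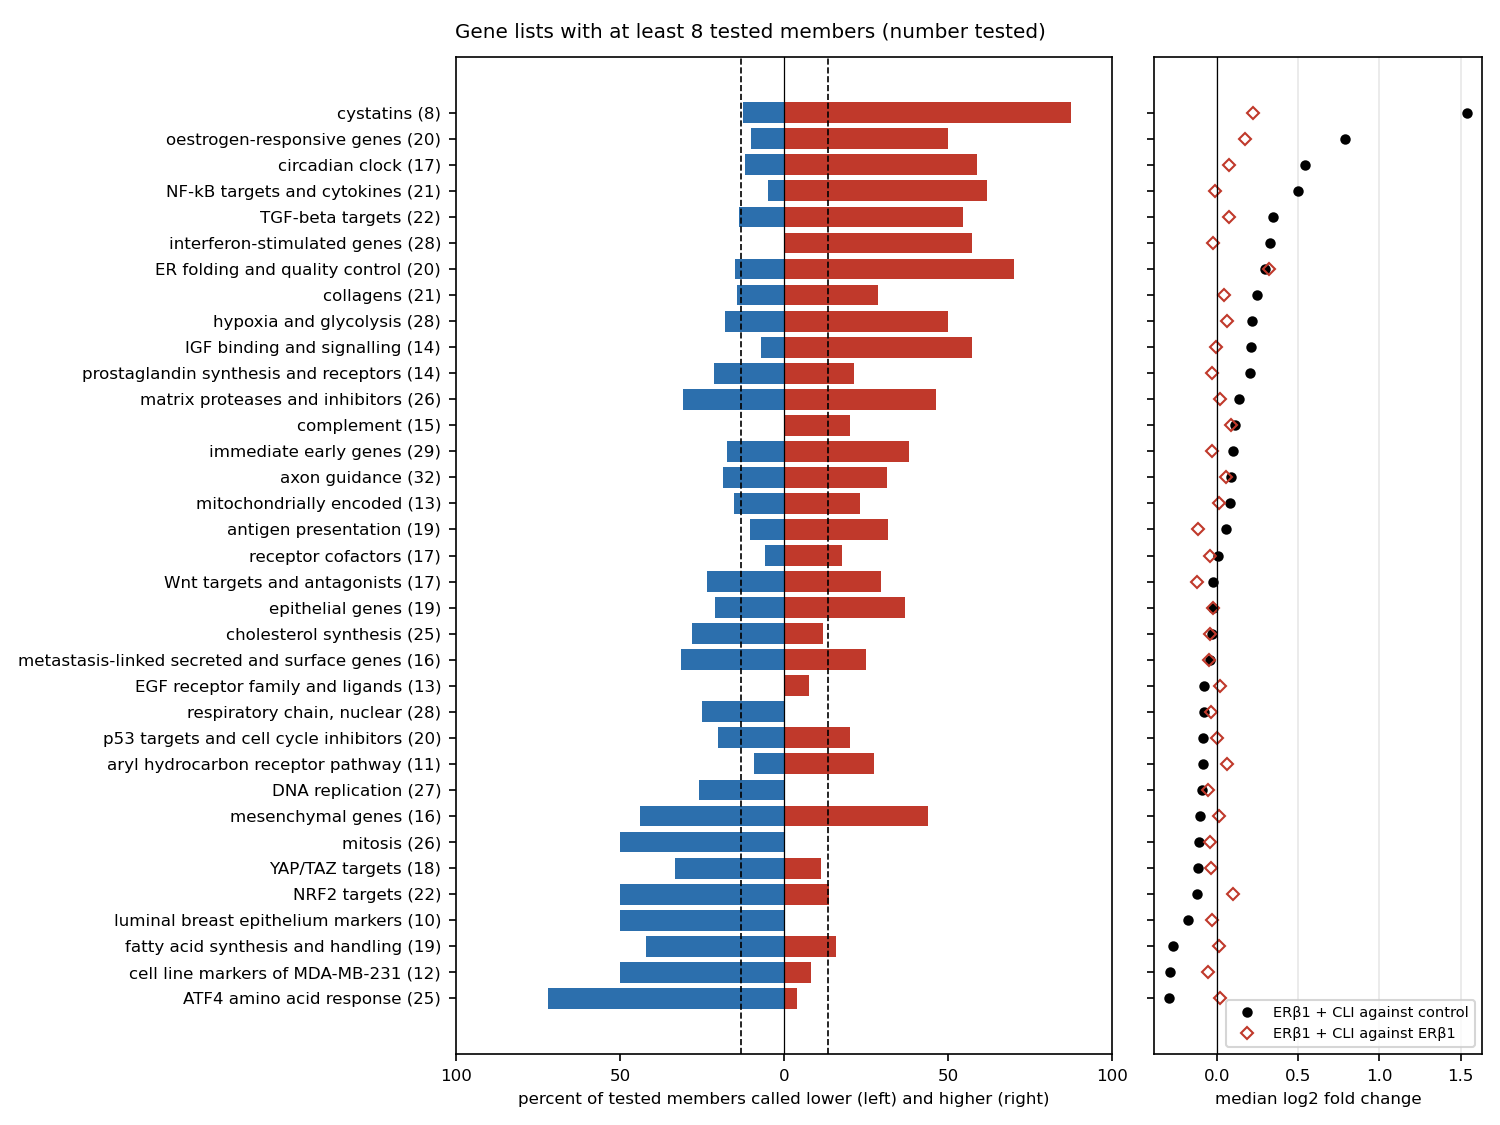
For each gene list with at least 8 members tested, the left panel gives the percent of tested members called higher (red) or lower (blue) in liganded ERβ1 against control cells, with dashed lines at 13.3 and 13.1%, the shares over all genes; the right panel gives the median log2 fold change against control (filled) and against ERβ1 cells without CLI (open). The cystatin list stands highest with a median of 1.54, the ATF4 list lowest at -0.30, and for ER folding genes the filled and open points lie together, at 0.30 and 0.32.

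More oestrogen-responsive genes rose than fell. Of 20 tested, 10 rose and 2 fell, with a median log2 fold change of 0.79. In the ligand step 7 rose, where 1.04% of all genes were called higher. These 7 remained 7 with the replicate block and became 4 without both receptor libraries numbered 2. KRT13, a keratin of stratified epithelium, had 0 counts in control, 10.4, 8.9 and 10.2 in ERβ1 and 98.6, 91.7 and 83.5 in liganded libraries, at least 29.1-fold higher against 3 counts per control library. IGFBP4, which binds insulin-like growth factors, had 684, 686 and 646 CPM in control and 1448, 1369.9 and 1359 CPM in liganded libraries (log2 fold change 1.05 ± 0.04, edgeR adjusted p = 3.17e-07). Cathepsin D (CTSD), a lysosomal protease, rose from 663 ± 39.1 to 1136 ± 24.4 CPM (SD, n = 3 each). The members that fell were XBP1 (-0.18) and MYBL1 (-0.22). The classical targets TFF1 and RET stayed under the filter, with TFF1 at 0 counts in every control library and 4.9, 9.4 and 6.9 in liganded ones, and RET at 0, 0 and 0.9 against 11.6, 6.2 and 12.2. Liganded libraries lay above control libraries in both, at counts too low for the test. Other members under the filter were less clear. PGR overlapped, with 0, 1.5 and 0.6 counts in control and 4.5, 1.3 and 1.3 in liganded libraries. TFF3 totalled 1 count in control and 4 in liganded libraries, and CXCL12 had 0 in every library.

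Among the receptor's partners, 3 of 17 cofactor genes rose and 1 fell, a share of 23.5% near that of all genes. The coactivator gene NCOA1 went from 42.9 to 79.8 CPM (0.90 ± 0.04, edgeR adjusted p = 1.47e-06). Changes of NCOA4 (0.13) and CARM1 (-0.18) were small and lost their calls in the fit of 6 libraries with the replicate block. Among the 4 steroid receptor genes with enough counts, ESR2 alone was called by edgeR, and the progesterone receptor gene PGR had at most 4.8 counts in any library.

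The cystatins, secreted inhibitors of cysteine proteases, had the highest median of any list in the plot of lists. Of 8 tested, 7 rose and 1 fell, with a median of 1.54. CST1 (chromosome 20, 23747553 to 23751268, minus strand) had 4.62, 5.2 and 5.33 CPM in control and 75.2, 74.7 and 74.3 CPM in liganded libraries, a log2 rise of 3.89 ± 0.06 (edgeR adjusted p = 2.21e-09). CST4 and CST2 rose by 2.51 and 2.84, and CST5 went from 0 counts in control cells to 2.09 CPM, at least 30.5-fold higher. Reads of CST1, CST2 and CST4 may be shared out wrongly, since these genes resemble each other closely. CST3, the abundant cystatin C gene, rose by 0.44, and CSTB, the intracellular cystatin B gene, was lower by a log2 change of -0.12, a call lost in 12 alternatives.

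Of 15 complement genes 3 rose and none fell by edgeR's adjusted p, a share of 20% below that of all genes. Besides C3 these were the proteases of the first component, C1R (0.59) and C1S (0.94, a call lost without control replicate 2 or 3 or liganded replicate 1). Without liganded replicate 2 the count was 5. Prostaglandin genes moved both ways, 3 higher and 3 lower of 14. The prostaglandin importer gene SLCO2A1 rose from 0.0371 to 0.726 CPM and the exporter gene ABCC4 fell from 43.2 to 30.7 CPM, beside the rise of PTGS2 and the fall of PTGES above.

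Chaperones and folding enzymes of the endoplasmic reticulum (ER) were higher in liganded cells than in either other group. Of 20 genes, 14 were higher and 3 lower than in control, with a median of 0.30. Against unliganded ERβ1 cells 12 were higher and 0 lower, where 1.04 and 0.428% of all genes were called. These 12 became 9 with the replicate block and 7 without both receptor libraries numbered 2. The median was 0.32 against unliganded cells, and -0.02 for unliganded cells against control.

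HSPA5 (ENSG00000044574, chromosome 9, 125234853 to 125241330, minus strand), the ER Hsp70 chaperone also called BiP, had 758, 764 and 752 CPM in control, 675, 702 and 680.2 CPM in ERβ1 and 968, 1002 and 957 CPM in liganded libraries. The unliganded libraries were the lowest and the liganded ones the highest, with no overlap. The log2 fold change was 0.36 ± 0.03 over control and 0.51 ± 0.03 over unliganded cells (edgeR adjusted p = 2.39e-05 and 7.75e-05). HSP90B1, the ER Hsp90 chaperone, had 933, 965 and 977 CPM in control, 949, 963 and 938 CPM in ERβ1 and 1343, 1393 and 1324 CPM in liganded libraries. Control and unliganded libraries overlapped, and the step came with CLI (0.51 ± 0.03, edgeR adjusted p = 8.74e-05). The disulfide isomerase gene PDIA4, calreticulin (CALR), the secreted ER protein genes CRELD2 and MANF, and the cochaperone gene DNAJB11 rose over control by 0.34, 0.39, 0.58, 0.44 and 0.43. SEL1L, the scaffold of the ER degradation complex, rose in both receptor groups, from 143 CPM in control to 178 CPM and then 221 CPM with CLI. The 3 members that were lower than in control were HERPUD1 (-0.59, edgeR adjusted p = 0.0452), a membrane protein of ER degradation that had 63.1, 37.5 and 61.7 CPM in liganded libraries, the transcription factor gene XBP1 (-0.18) and calnexin, CANX (-0.16).

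The ER stress response element, a site known to be bound by ATF6 together with NF-Y, was looked for in the same promoter windows, a search chosen after the values were seen. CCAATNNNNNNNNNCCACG occurs on either strand in 0.0769% of 35116 windows. Counting every window of a gene, it was found in 5 of the 11 members that rose in the ligand step and have a window, and in 2 of the other 8. HSPA5, HSP90B1, CALR, CRELD2 and PDIA6 held it among the first, and XBP1 and CANX, both lower than in control, among the others. HSP90B1 held 2 copies, 1 on each strand, and CALR its copy on the minus strand of the window. Windows of genes with and without a called step are shown, with the element in capitals.
HSPA5, chr9:125241294-125241593, minus strand: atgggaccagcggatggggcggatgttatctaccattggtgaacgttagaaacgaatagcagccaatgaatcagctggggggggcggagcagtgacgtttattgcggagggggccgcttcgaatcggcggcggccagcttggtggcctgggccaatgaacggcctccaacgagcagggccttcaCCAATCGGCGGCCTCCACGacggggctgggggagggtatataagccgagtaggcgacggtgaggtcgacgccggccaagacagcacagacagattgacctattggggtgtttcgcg
HSP90B1, chr12:103930160-103930459, plus strand: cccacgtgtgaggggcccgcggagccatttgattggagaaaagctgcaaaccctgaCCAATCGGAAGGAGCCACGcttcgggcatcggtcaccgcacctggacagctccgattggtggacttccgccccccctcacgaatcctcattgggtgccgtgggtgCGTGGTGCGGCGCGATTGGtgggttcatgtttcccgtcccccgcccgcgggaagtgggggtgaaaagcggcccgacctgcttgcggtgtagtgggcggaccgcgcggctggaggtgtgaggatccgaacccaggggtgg
CALR, chr19:12938359-12938658, plus strand: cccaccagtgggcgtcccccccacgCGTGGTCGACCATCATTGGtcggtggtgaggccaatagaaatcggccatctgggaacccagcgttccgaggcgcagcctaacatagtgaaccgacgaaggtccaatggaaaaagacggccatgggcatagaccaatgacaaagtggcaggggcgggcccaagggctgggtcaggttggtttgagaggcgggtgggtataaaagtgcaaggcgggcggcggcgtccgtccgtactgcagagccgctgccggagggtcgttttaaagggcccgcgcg
XBP1, chr22:28800520-28800819, minus strand: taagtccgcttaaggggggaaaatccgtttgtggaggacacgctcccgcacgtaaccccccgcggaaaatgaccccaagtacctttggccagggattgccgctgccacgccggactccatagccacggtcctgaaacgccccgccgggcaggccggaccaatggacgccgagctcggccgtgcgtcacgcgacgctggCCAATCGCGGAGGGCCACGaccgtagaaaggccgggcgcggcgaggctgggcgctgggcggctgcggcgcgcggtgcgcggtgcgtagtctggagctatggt

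Genes of the ATF4 amino acid response went the other way. Of 25, 18 were lower and 1 higher, with a median of -0.30. None was called in the ligand step by edgeR, where 1.47% of all genes were called, so that count says little, and the median of that step was 0.02. ATF4 itself, the transcription factor of the response, fell from 404 ± 2.93 to 326 ± 14.4 CPM. PSAT1, of serine synthesis, had 397, 396 and 390.0 CPM in control and 275, 282 and 263 CPM in liganded libraries (-0.53 ± 0.04, edgeR adjusted p = 1.42e-05). ASNS, which makes asparagine, fell by 0.36, the cystine importer gene SLC7A11 by 0.39 and the asparaginyl-tRNA synthetase gene NARS1 by 0.48 on the log2 scale. SESN2, a stress-induced inhibitor of mTORC1, fell from 56.2 to 32.5 CPM, and CEBPB was the member that rose (0.14), a call lost in 6 alternatives.

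**Figure D4:**
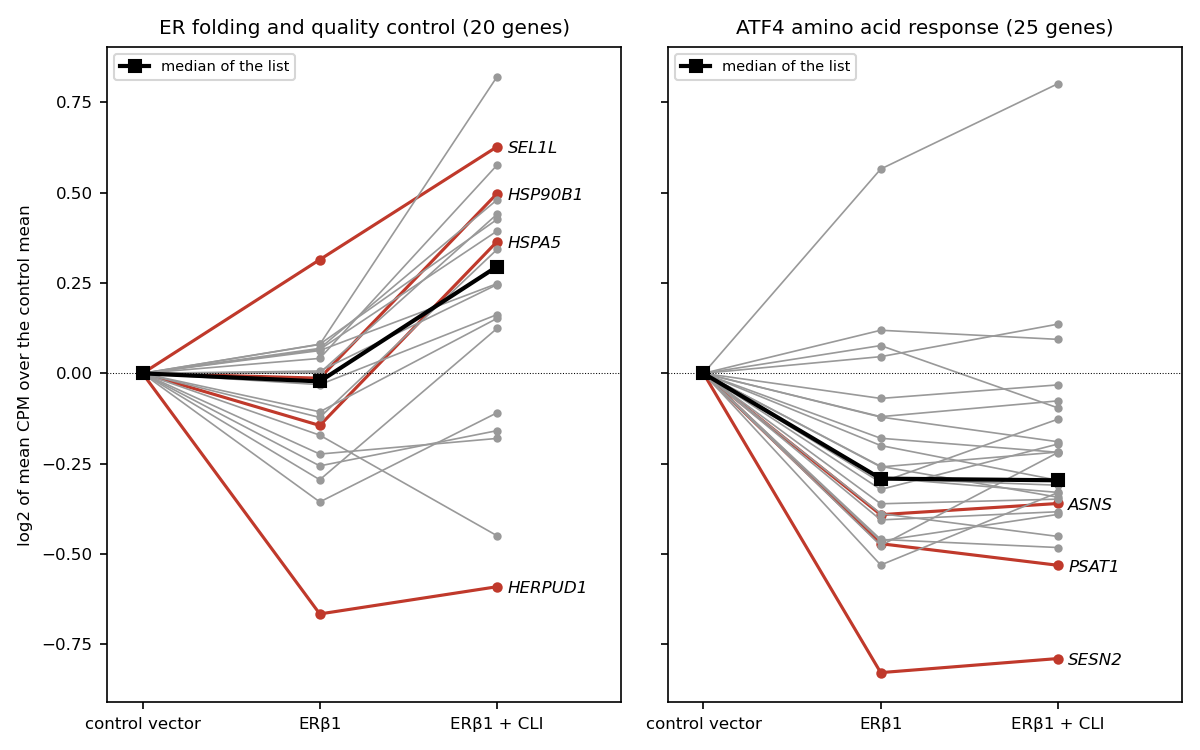
Group means of each member relative to control (log2 of mean CPM over the control mean; each line is 1 gene, 3 libraries a group) for 20 ER folding genes and 25 genes of the ATF4 response, with the median of each list in black and a few members in red. The black line of the folding genes is at -0.02 without CLI and rises with CLI, while that of the ATF4 genes is about equally low in both groups of receptor cells.

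Targets of NRF2, the factor of redox defence, were lower in 11 and higher in 3 of 22 cases, with a median of -0.12. TXNRD1, a thioredoxin reductase, had 981, 974 and 951 CPM in control and 616, 633 and 622 CPM in liganded libraries (-0.64 ± 0.03, edgeR adjusted p = 1.23e-06). The peroxiredoxin gene PRDX1 fell by 0.42, the quinone reductase gene NQO1 by 0.41 and PGD, of the pentose phosphate pathway, by 0.83. HMOX1, which breaks down haem, rose by 0.78. Of 11 genes of the aryl hydrocarbon receptor pathway 3 rose, among them CYP1B1, a P450 that oxidises oestrogens, from 243 to 327 CPM, and NQO1 fell.

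Inflammatory and interferon genes were higher, mostly at small fold changes and without a called rise at the ligand step, where 1.04% of all genes were called higher. Of 21 NF-kB targets and cytokines, 13 rose and 1 fell (median 0.50). Interleukin 1 beta, IL1B, had 7.68, 6.0 and 5.73 CPM in control and 13.1, 12.1 and 13.4 CPM in liganded libraries (0.99 ± 0.11, edgeR adjusted p = 0.000262). The apoptosis inhibitor gene BIRC3 rose by 0.73, the adhesion receptor gene ICAM1 by 0.50, and the cytokine gene IL11 fell by 0.33. Of 28 interferon-stimulated genes, 16 rose and 0 fell (median 0.33). The nuclease gene ISG20 went from 1.36, 1.26 and 1.37 CPM in control to 5.1, 5.73 and 5.94 CPM in liganded libraries (2.07 ± 0.11). The guanylate-binding protein gene GBP2 rose by 0.86, OASL by 1.00 and IFI27 by 0.61. IFIT1 and IFIT2, which bind viral RNA, rose over control by 0.38 and 0.33 and were lower than in unliganded cells by -0.35 and -0.44 (edgeR adjusted p = 0.0341 and 0.00263, with IFIT1 at 0.0722 under the replicate block). Of 19 genes of antigen presentation 6 rose, led by the class II genes HLA-DRB1 (0.49) and HLA-DPA1 (0.59), and 2 fell, a count that ran from 0 to 3 over the alternatives. Their sequences vary between people and between loci, so counts against the reference are uncertain.

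TGF-beta targets were higher in 12 and lower in 3 of 22 cases (median 0.34). INHBA, the activin A subunit gene, had 35.2, 35.3 and 36.0 CPM in control, 76.5, 79.4 and 78.4 CPM in ERβ1 and 112, 114 and 109 CPM in liganded libraries. The groups did not overlap, with a log2 fold change of 1.65 ± 0.04 over control and 0.52 ± 0.03 in the ligand step (edgeR adjusted p = 1.77e-08 and 0.000175). INHBA and INHBB were thus both higher in liganded cells than in either other group. Feedback inhibitors of the pathway rose over control, PMEPA1 by 1.37, SMAD7 by 1.13 and SKIL by 0.86. The ligand gene TGFB2 was lower (-0.30) and TGFB1 higher (0.28).

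Immediate early genes rose in 11 and fell in 5 of 29 cases. The count that fell ran from 3 to 5 over the alternatives, and was 3 without control replicate 1 or 2, without liganded replicate 1 or 3, and with no filter on low counts. EGR1 had 21.0, 20.9 and 22.1 CPM in control and 83.7, 73.9 and 73.5 CPM in liganded libraries (1.85 ± 0.08, edgeR adjusted p = 8.07e-07), and unliganded libraries overlapped with these, at 74.7, 87.9 and 86.9 CPM. The AP-1 gene JUNB rose by 1.33 and the MAP kinase phosphatase gene DUSP1 by 1.32, while the AP-1 gene FOSL1, abundant in this line, fell from 524 to 374 CPM. Growth factor genes moved unevenly. Of 14 genes of the insulin-like growth factor system 8 rose, among them IRS2 (0.44) and STC1 (0.66), which cuts off a protease of IGF-binding proteins, and IGFBP1 fell (-0.81). In the EGF receptor family TGFA (0.48) was the 1 of 13 called, below the share over all genes. YAP/TAZ targets were lower in 6 and higher in 2 of 18 cases, where 3 fell without control replicate 1, with MYOF at -0.55 and ANKRD1 at 0.46. Of 17 Wnt genes 5 rose and 4 fell, including the antagonist gene DKK1 (-0.65) and the receptor genes FZD7 (-0.61) and FZD8 (-1.42). Without liganded replicate 3 or control replicate 3 the count of Wnt genes that rose was 3.

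Genes of epithelial and mesenchymal state changed in both directions. CDH1, the E-cadherin gene, had 0.198, 0.117 and 0.0466 CPM in control and 2.62, 2.46 and 2.53 CPM in liganded libraries, a rise of 4.35 ± 0.43 (edgeR adjusted p = 0.000132) that ended at a low level. SNAI1, a transcription factor known as a repressor of CDH1, rose as well, from 1.01, 0.77 and 0.745 CPM to 11.8, 11.7 and 11.1 CPM (3.77 ± 0.15, edgeR adjusted p = 6.58e-07), with 4.67, 4.73 and 5.91 CPM in unliganded cells. Both genes were therefore higher in every liganded than in every control library. Of 19 epithelial genes 7 rose and 4 fell, and of 16 mesenchymal genes 7 rose and 7 fell, or 4 without liganded replicate 1 or 2. The junction genes JUP, TJP1 and CLDN1 rose by 0.74, 0.37 and 0.55. The tight junction gene TJP3, named among the falls above, went the other way, with log2 changes from -3.4 to -3.07 over the alternatives. Vimentin fell from 3041 ± 109.7 to 2509 ± 73.5 CPM and the calcium-binding protein gene S100A4 by 0.81, while fibronectin, FN1, rose by 0.62.

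Transcripts of collagens and of matrix proteases changed in both directions, and 3 lysyl oxidase genes, which were not a list, are given beside them. LOX, the founding lysyl oxidase, rose from 93.7 to 145 CPM (0.63, with a ligand step of 0.41), beside LOXL4 above, whereas LOXL2 fell (-0.44). Of 21 collagen genes 6 rose and 3 fell. The anchoring fibril collagen COL7A1 rose by 1.37, COL5A1 by 0.88 and COL4A4 by 1.66, and the transmembrane collagen COL13A1 fell by 0.79. Of 26 proteases and inhibitors 12 rose and 8 fell. The disintegrin metalloproteases ADAM12 and ADAM19 rose by 2.47 and 0.72, and the inhibitor gene TIMP3 fell from 157 to 89.9 CPM. MMP1, the interstitial collagenase, fell by 0.60, with a called ligand step of -0.38.

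Genes that steer cells and axons moved both ways. SEMA3B, a secreted semaphorin, had 20.7, 19.0 and 19.6 CPM in control, 63.7, 64.9 and 70.9 CPM in ERβ1 and 136, 133 and 138 CPM in liganded libraries. Each group lay above the one before (2.78 ± 0.05 over control and 1.03 ± 0.05 in the ligand step, edgeR adjusted p = 9.8e-09 and 5.46e-05). Of 32 guidance genes 10 rose and 6 fell, SEMA6B by 0.99 upward and the ephrin receptor gene EPHA2 by -0.61. Among genes linked to metastasis, 4 of 16 rose and 5 fell, or 2 without any 1 of the control libraries and 3 without liganded replicate 3 or ERβ1 replicate 1. The chemokine receptor gene CXCR4 went from 8.27, 6.65 and 6.92 CPM in control to 2.53, 2.5 and 2.78 CPM in liganded libraries (-1.48 ± 0.14, edgeR adjusted p = 0.000101). PTHLH, which encodes parathyroid hormone-related protein, rose from 0.853 to 2.03 CPM, and ACKR3, the other receptor of the ligand of CXCR4, from 0.0229 to 0.375 CPM.

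Genes of mitosis and DNA replication that were called by edgeR were all lower, by small amounts, in the fit of all 9 libraries, whereas 1 replication gene was higher with DESeq2 or with at least 1 CPM in 3 libraries. Of 26 mitotic genes 13 fell and 0 rose, with a median of -0.11, and the count of falls ran from 7 to 14 over the alternatives, being 8 without control replicate 1 or without liganded replicate 3. CDC20, an activator of the anaphase-promoting complex, had 239.7, 245 and 233 CPM in control and 169, 172 and 161 CPM in liganded libraries (-0.51 ± 0.05, edgeR adjusted p = 6.93e-05). KIF23 and BUB1 fell by 0.25 and 0.29. Of 27 replication genes 7 fell and 0 rose by edgeR, a share of 25.9% near that of all genes, among them MCM7 (-0.29) and thymidylate synthase, TYMS (-0.43). Of 20 p53 targets and inhibitors of the cycle 4 rose and 4 fell. The inhibitor gene CDKN1A rose by 0.22 and GADD45A fell by 0.72.

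Metabolic genes moved in both directions. Of 28 hypoxia and glycolysis genes 14 rose and 5 fell. Hexokinase, HK1, rose by 0.73 with a ligand step of 0.28, and NDRG1 by 0.32, while SLC2A1, which carries glucose into the cell, fell by 0.53 and ENO1, an enolase of glycolysis, by 0.42. Of 19 fatty acid genes 8 fell, among them the desaturase gene SCD (-0.56) and the elongase genes ELOVL1 (-0.48) and ELOVL5 (-0.32), and 3 rose. Cholesterol genes fell in 7 and rose in 3 of 25 cases. INSIG1, a retention factor for the sterol sensor, went from 108 to 79.5 CPM. Nuclear genes of the respiratory chain fell in 7 of 28 cases and rose in 0, a share of 25% near that of all genes. Of 13 mitochondrial transcripts 3 rose and 2 fell, counts that ran from 1 to 4 and 0 to 2 over the alternatives.

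Clock genes rose in 10 and fell in 2 of 17 cases, with a median of 0.55. BHLHE40, a repressor of the clock's activators, had 52.0, 50.2 and 52.9 CPM in control, 107, 106 and 103 CPM in ERβ1 and 158, 149 and 145 CPM in liganded libraries (1.54 ± 0.04 over control, edgeR adjusted p = 6.53e-08). NR1D1, the repressor REV-ERB alpha, rose by 1.77 and its target gene ARNTL, which encodes BMAL1, by 0.69, while NPAS2, a partner of BMAL1, fell by 0.49. The hour of harvest is not given in the sources used here, and its part in these values was not tested.

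Markers of other cell types were listed to see whether they moved with the groups. In bulk RNA fewer cells of a type and less RNA per cell cannot be told apart. The list for the cell line held genes expected in it, such as VIM and AXL, and genes expected to be low, such as CDH1 and ESR1. Both kinds together summed to 9036 to 9502 CPM in control and 7583 to 8041 CPM in liganded libraries. Of its 12 members tested 6 were lower and 1 higher, the latter CDH1, a gene expected to be low. Luminal breast markers summed to 1373 to 1420 and 1243 to 1358 CPM, with 5 of 10 tested lower, and PIP and SCGB2A2 were at 0 in every library. The secreted isomerase gene AGR2 had 33.6, 44.5 and 37.3 counts in control libraries and 0 in every receptor library, at least 13.6-fold lower against 3 counts per library, and the luminal factor gene SPDEF fell from 3.05 to 0.473 CPM. Fibroblast markers summed to 25.6 to 33.2 and 29 to 42.3 CPM, and 2 of 5 tested were higher, LUM and COL1A1, and 1 lower, ACTA2. The proteoglycan gene LUM went from 0.0453 to 0.535 CPM. Blood cell markers summed to 81.4 to 85.1 and 79.9 to 90.2 CPM, with 1 of 3 higher (LYZ, 0.0613 to 0.556 CPM), and HBB was at 0 in every library. Endothelial markers summed to 11.3 to 12.8 and 14.2 to 16.4 CPM, with 2 of 4 higher, PECAM1 (0.312 to 1.19 CPM) and TEK, whose call was lost in 7 of the 17 alternatives that tested it. Their part in the results above was not tested.

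Neighbouring genes moved together in some stretches of the genome. In 29 of 295 windows of 10 Mb with at least 10 genes tested, the median log2 fold change over control was at least 0.15 in size, 7 higher and 22 lower, and 1219 genes lay in them. On chromosome 14 the median was 0.35 between 60 and 70 Mb, the window of ESR2 and RHOJ, where 37 of 70 genes were higher and 1 lower, and 0.34 between 70 and 80 Mb. On chromosome 1 it was -0.23, -0.30 and -0.28 in the windows between 0 and 30 Mb, which hold RNF223, ENO1, PGD, SDHB, EPHA2 and SESN2. Other named genes in such windows were SLITRK4 on chromosome X (0.27) and SLC7A11 on chromosome 4 (0.24). On chromosome 18 they were SERPINB2 (-0.26), ALPK2 and NARS1 (both -0.19) and TYMS (-0.16), and on chromosome 13 ABCC4 (-0.22) and IRS2 (-0.15). Unliganded cells had medians of 0.30 and -0.24, -0.30 and -0.30 in the windows of ESR2 and of chromosome 1 against the same control libraries. RHOJ, RNF223, SLC7A11 and IRS2 moved against their neighbours. Without the genes of the 29 windows 3940 genes were called, and the part of chromosome copy number in these values was not tested.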

How the data were processed

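RNA from 9 libraries, 3 a group, was sequenced from 1 end of each fragment after a strand-specific poly(A) preparation, per the labels' protocols. The submitters' processing notes name bcl2fastq 2.20, FastQC, Trimmomatic 0.38, Salmon 1.2.1, R 4.0.2, edgeR 3.30.3 and GRCh38, while no annotation release is given in the sources used here. The authors deposited estimated counts per gene, which are not whole numbers, and log2 CPM with TMM scaling for 18934 genes. Count columns call the control cells wild type. Estimated counts were rounded and tested with edgeR 4.0.16 in R 4.3.3 (filterByExpr, TMM, quasi-likelihood F test, all 9 libraries, 1 coefficient a group), and p-values were adjusted by Benjamini-Hochberg over 17058 genes. Genes with an adjusted p under 0.05 were called, and SE is the log2 fold change divided by the square root of F. For large changes with few counts in 1 group, this SE can be smaller than the counting error. CPM values use TMM library sizes. The 39902456 to 55387538 counts per library leave genes of a few counts imprecise, and floors of 3 counts cover counting error only.

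Named genes were ESR2, C3 and GREB1, then the 12 largest rises and falls against control. These had to be called, average 2 CPM or more and have groups that did not overlap. The 6 largest rises and falls of the ligand step followed, under the same conditions over the receptor libraries. They were taken only from genes also called against control, so larger steps of other genes were passed over. Clone, LOC, LINC, antisense and read-through names were left out of both rankings. Up to 4 called genes of each list were added. Some genes under this rule are not reported here. Genes named beyond this rule were named after their values were seen. Comparisons, gene lists and named genes were chosen with earlier results of these data known. Deviations from group means of same-numbered ERβ1 and liganded libraries correlated at 0.130, 0.416 and 0.146 over 12625 genes, so these counted as pairs, although libraries 1 and 3 correlated as much crosswise (0.180 and 0.165). Alternatives were DESeq2 1.42.0, limma 3.58.1 on the deposited log2 CPM, other scalings and filters, the 6 libraries alone, a replicate block and leaving out each library. Leaving out both receptor libraries numbered 2, or the genome windows that shifted, was chosen after seeing the data. Promoters are from RefSeq tables (GRCh38.p14). Figures used matplotlib 3.10.9.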

Additional observations from a re-analysis of the deposited data

How the results depend on the processing

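None of the log2 fold changes of 160 named genes against control or of 43 ligand steps changed sign under the alternatives run. The balance of calls did, with 2274 higher and 2238 lower becoming 2381 and 2439 with DESeq2 and 2135 and 2200 with the replicate block, and turning likewise in 5 further alternatives. The 4512 genes called between liganded and control cells became 3227 (6 libraries with the replicate block) to 4820 (DESeq2), with 3364 to 4376 when single libraries were left out and 4335 with the replicate block in all 9. Libraries of these groups share only a number (correlations -0.003, -0.026 and 0.061). With at least 1 CPM in 3 libraries, which tests fewer low genes, the changes of at least 2-fold were 391 higher and 108 lower. Calls between liganded and unliganded cells were less stable. DESeq2 called 642, 360 higher and 282 lower, and the replicate block left 136, 104 higher and 32 lower. Leaving out single libraries gave 114 to 211, 91 to 151 higher and 23 to 60 lower, and without both receptor libraries numbered 2 there were 72, 56 higher and 16 lower. The cause was not tested. Of 160 named genes, 147 kept their call against control in every alternative, and of 43 with a ligand step 18 did, among them C3, GREB1, INHBB, LOXL4, HSPA5 and HSP90B1. In lists with up to 3 members called in a direction, that count moved by up to 2 when single libraries were left out, and with the 6 libraries and the replicate block 5 IGF genes and 1 NRF2 target rose. Genes of a few counts are limited by depth.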
